A study of Caenorhabditis elegans with 2 samples.

Results

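Nuclear hormone receptor genes were examined for peaks in libraries labelled eGFP-CES-1. These come from mixed-stage embryos of the worm Caenorhabditis elegans and were made by ChIP-seq, in which DNA bound by a protein is precipitated with an antibody and sequenced. The members were the protein-coding genes named nhr with a number in the WBcel235 annotation, 269 of 19973 protein-coding genes on the nuclear chromosomes. Each was taken by its name alone, but the set was chosen with earlier results of these data known. Both libraries, biological replicates 1 and 2, came from strain OP174, which is unc-119(ed3) and carries wgIs174, an integrated transgene of ces-1 with TY1, EGFP and FLAG tags together with unc-119. The labels give the material as whole organisms with males and females pooled, so that the cells behind a peak are not known, and the antibody field names the target only. No untagged or mutant group was analysed here. The list used was the authors' pooled, thresholded list on ce11, with 6273 nuclear peaks, and the number of reads behind it is not given in the sources used here.

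Nuclear hormone receptors are transcription factors that bind DNA through a zinc finger domain and carry a ligand-binding domain, whose ligands in other receptors of the class include steroids, fatty acids and other small lipophilic molecules. C. elegans has many more of these genes than insects or vertebrates. Some have clear counterparts in those animals, and most of the rest are thought to descend from a single HNF4-like ancestor by repeated duplication, which left large tandem groups on chromosome V. CES-1 is a zinc finger factor of the Snail family, which is known for binding the E-box CAGGTG.

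Peaks were found at few of these genes, and those peaks were of ordinary strength. A gene was counted as bound when a summit, the highest point of a peak, lay in its promoter window (1000 bp upstream to 200 bp downstream of any annotated 5′ end) or in its body. In the promoter window 23 of the 269 genes had a summit, or 8.55% (exact 95% binomial interval 5.50 to 12.6), where 16.2% of all protein-coding genes had one. In the promoter window or the body 28 had one, or 10.4% (7.03 to 14.7), where 19.4% of all protein-coding genes did. Neither interval held the share of all genes. A difference between these shares was not tested, since neighbouring genes share summits. For comparison, 15 of 63 ceh homeobox genes were bound, or 23.8% (14 to 36.2), and 12 of 156 col collagen genes, or 7.69% (4.04 to 13.1). The 28 bound genes carried 36 summits.

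The signal of a peak is the authors' peak caller's own value, on a scale that is not stated, and was used here to order peaks within a list. Member summits ran from 64.4 to 271, against 58.7 to 3177 with a median of 119 over the thresholded list. Taking the strongest summit of each gene, the median was 118 for bound members and 137 for other bound protein-coding genes. The strongest ranked 880 and the weakest 5838, 15 lay at or above the median of the list and 21 below it, and 0 were among the 500 strongest peaks.

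The sequences under member summits are shown for 9 genes because they hold the E-boxes and the GAGAGA repeats counted further on. Each run is 101 bases of the ce11 reference with the summit in the middle, written 5′ to 3′ on the strand of the gene. Capitals mark the letters CANNTG, or GAGAGA and its reverse complement TCTCTC. The windows are chrX:15742571-15742671 (plus strand) for nhr-255, chrX:13251743-13251843 (plus) for nhr-32, chrX:12664987-12665087 (minus) for nhr-17, chrX:17513683-17513783 (plus) for nhr-1, chrV:311686-311786 (plus) for nhr-15, chrV:532190-532290 (plus) for nhr-58, chrV:2281673-2281773 (plus) for nhr-228, chrV:3857886-3857986 (minus) for nhr-188 and chrIV:8232584-8232684 (minus) for nhr-66.
nhr-255: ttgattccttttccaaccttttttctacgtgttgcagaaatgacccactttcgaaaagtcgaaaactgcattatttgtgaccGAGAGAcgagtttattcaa
nhr-32: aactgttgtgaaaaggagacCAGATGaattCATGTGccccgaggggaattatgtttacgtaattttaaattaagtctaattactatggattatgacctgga
nhr-17: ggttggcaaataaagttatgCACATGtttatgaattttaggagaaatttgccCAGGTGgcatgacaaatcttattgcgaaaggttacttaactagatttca
nhr-1: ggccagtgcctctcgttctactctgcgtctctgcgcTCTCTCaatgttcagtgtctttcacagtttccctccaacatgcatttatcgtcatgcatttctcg
nhr-15: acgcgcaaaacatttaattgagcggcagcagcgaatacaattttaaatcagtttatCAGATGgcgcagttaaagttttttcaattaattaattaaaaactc
nhr-58: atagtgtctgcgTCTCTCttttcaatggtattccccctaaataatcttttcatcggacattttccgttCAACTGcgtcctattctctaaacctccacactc
nhr-228: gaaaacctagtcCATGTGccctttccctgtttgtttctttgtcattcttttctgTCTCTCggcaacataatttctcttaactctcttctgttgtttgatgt
nhr-188: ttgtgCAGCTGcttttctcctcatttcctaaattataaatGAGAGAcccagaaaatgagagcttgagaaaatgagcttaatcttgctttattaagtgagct
nhr-66: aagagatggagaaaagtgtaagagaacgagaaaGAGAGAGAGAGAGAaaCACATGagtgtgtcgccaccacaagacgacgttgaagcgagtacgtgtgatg

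CAGGTG, the Snail E-box, searched on both strands, lay within 50 bp of 1 of the 36 member summits, the one in nhr-17 shown above. That is 2.78%, against 1.80% of all 6273 thresholded summits and 2.72% of windows of 101 bp centred 150 bp upstream of the outermost 5′ end of each protein-coding gene. The general E-box CANNTG, which reads the same on both strands in this form and takes in CAGGTG, was in 15 windows, or 41.7%, against 34.9% of all summits and 30.8% of the upstream windows. The repeat GAGAGA, on either strand, was in 14, or 38.9%, against 23.3% and 8.42%. It stood in the windows of nhr-1, nhr-228 and nhr-66 without CAGGTG in any of them. The windows of members had a median of 39.1% G and C, those of all summits 41.6% and the upstream windows 33.7%. No interval was computed for the motif shares, which rest on 36 member windows, and their differences were not tested. The windows shown above were picked for these letters and do not give the shares. A match is a run of letters and not a shown binding site.

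The bound genes were spread unevenly over the chromosomes. X held 23 members and 10 of them were bound, or 43.5% (23.2 to 65.5), beside 22.3% (20.8 to 24.0) of the other protein-coding genes of X. The intervals overlapped narrowly, and in the promoter window alone the shares were 30.4% (13.2 to 52.9) and 16.2% (14.9 to 17.7). On V, home to 62.1% of the members and 25% of all protein-coding genes, 12 of 167 were bound, or 7.19% (3.77 to 12.2), beside 11.4% (10.5 to 12.3) of the other genes. On the remaining autosomes 6 of 79 members were bound, or 7.59% (2.84 to 15.8), beside 22.2% (21.4 to 22.9) of the other genes. Of these 3 divisions of the genome, the last is the one where the intervals did not overlap. These 6 were nhr-49 on I and 5 of the 33 members on IV. On II 0 of 15 were bound, which leaves a share of up to 21.8% by the exact interval, and on III 0 of 8, up to 36.9%. Members on X were also longer than other genes there, with a median of 4483 bp against 2532 bp, and on X the 10 bound members had a median of 4170 bp and the 13 without a summit 4675 bp.

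**Figure D1:**
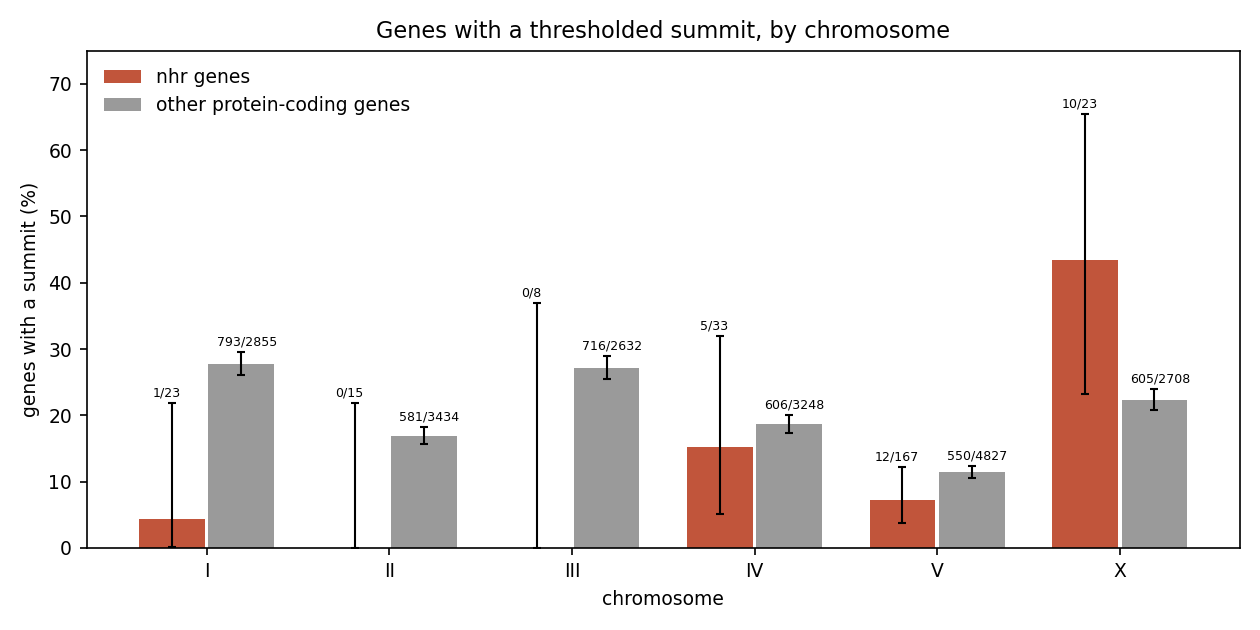
Share of nhr genes and of other protein-coding genes with a thresholded summit in the promoter window or gene body, in percent, for each chromosome; bars are shares, lines exact 95% binomial intervals, and labels give bound over all genes. The nhr share is 43.5% on X and 7.19% on V, and 0 genes are bound on II and III.

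The strongest member peaks lay on X. At nhr-255 (peak X, 15742574 to 15742718) the summit fell in a coding exon 11 bp inside the gene, with a signal of 148 in replicate 1, 125 in replicate 2 and 271 in the pooled list. At nhr-32 (X, 13251729 to 13251887) it lay 171 bp upstream of the gene, with 118, 151 and 267. The pooled values of these genes differed by far less than the spread between replicates: over the 34 member summits found in both replicates the SD of the log2 ratio between the replicates' signals was 0.54, or 1.46-fold, against 0.57 over all thresholded peaks. At nhr-17 (X, 12664926 to 12665129) the summit was intronic, 2817 bp downstream of the 5′ end, with 83.0, 142 and 222. That summit lay nearer to the 5′ end of the neuropeptide gene nlp-76, 1134 bp away, than to that of nhr-17, and within 200 bp of an annotated tRNA gene, as did 1.48% of all thresholded summits.

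nhr-1 carried more summits than any other member, with 4. The strongest (X, 17513636 to 17513831) lay 330 bp upstream of the outermost 5′ end, with 101 in replicate 1, 109 in replicate 2 and 203 pooled. The others were intronic: 1618 bp downstream of the nearest 5′ end (pooled signal 172), 796 bp downstream (134), and 88 bp upstream of an internal 5′ end (65.4). All 4 were found in both replicates.

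The nhr-48 gene encodes a relative of the dauer and steroid receptor DAF-12, and its summit (X, 15707430 to 15707819) lay 588 bp upstream, with 63.2 in replicate 1, 89.6 in replicate 2 and 157 pooled. nhr-27 had an intronic summit (X, 12713060 to 12713449; 52.2, 72.2 and 129). At 102756 bp nhr-27 is the longest protein-coding gene of the annotation, and this summit also lay inside rgs-2, a regulator of G protein signalling, with the nearest 5′ end of rgs-2 602 bp away. nhr-3 had an intronic summit (X, 14560104 to 14560493; 59.0, 65.1 and 128) and a weaker one 871 bp upstream (44.5, 28.1 and 81.4).

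The last 3 bound members on X were weaker. nhr-45, known for a part in the response to mitochondrial stress, had an intronic summit with 55.9, 59.5 and 119. nhr-40, which is needed for normal embryonic development and muscle, had one in a coding exon with 51.3, 46.8 and 102, and an intronic one 374 bp upstream of an internal 5′ end with 55.3, 46.1 and 96.1. nhr-14, which acts in iron uptake and immunity of the intestine, had one 173 bp upstream with 55.4 in replicate 2 and 82.4 pooled, and no match in the list of replicate 1.

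**Figure D2:**
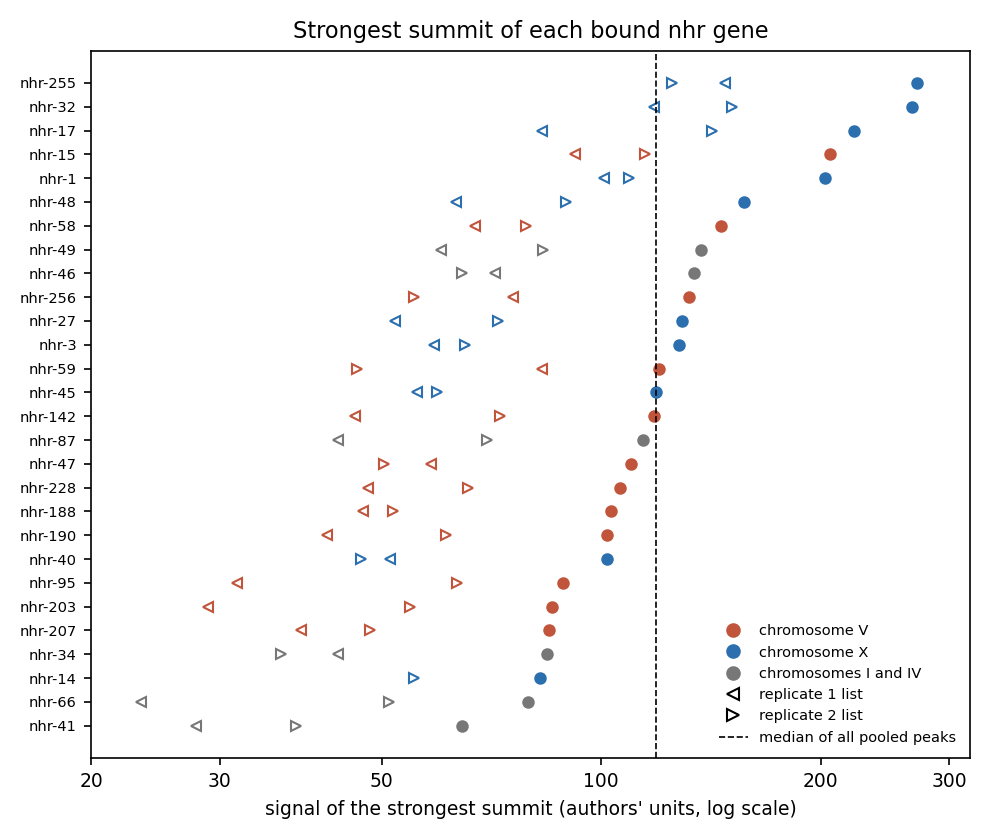
Signal of the strongest summit of each of the 28 bound nhr genes on a log scale: filled points are the pooled list, open triangles the nearest summit within 100 bp in each replicate's list, colours the chromosome, and the dashed line the median of all thresholded peaks (119). Pooled values stand above both replicates, and nhr-14 has no point for replicate 1.

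Off X and V, nhr-49, a regulator of fatty acid metabolism and the response to fasting, had a summit 341 bp upstream (I, 9869115 to 9869504) with 60.3 in replicate 1, 83.3 in replicate 2 and 137 pooled. nhr-46 had intronic summits with pooled signals of 134 (IV, 5754953 to 5755342; 71.6 and 64.5 in replicates 1 and 2) and 95.5, the weaker of which had no match in replicate 1. nhr-87 had its summit 182 bp upstream (43.5 and 69.8 in replicates 1 and 2, rank 3341 in the pooled list) and nhr-34 had one 129 bp upstream (43.6, 36.4 and 84.4 pooled). nhr-66, which encodes a partner of NHR-49, had one 796 bp upstream of an internal 5′ end (23.4, 51.2 and 79.4), inside an intron with a long GAGAGA repeat. The weakest bound member was nhr-41, a counterpart of the TR2 and TR4 receptors of vertebrates, with an intronic summit 318 bp upstream of an internal 5′ end, 27.8, 38.1 and 64.4, and an annotated tRNA gene within 200 bp.

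Of the 36 summits 26 lay in promoter windows, of which 22 were upstream of the 5′ end, with a median offset of -216 bp (minus is upstream), and 13 lay within 200 bp of it. Outside the windows there were 10 in gene bodies, and 9 of these were on X or IV, as the plot of place and signal shows. Relative to the gene itself 18 summits were outside it, 12 in introns, 4 in coding exons and 2 in untranslated exons. The median length was 4266 bp for bound members and 2246 bp for those without a summit, and 60.7% and 32.4% had more than 1 annotated 5′ end. On X the order was the reverse, with 4170 bp and 50% for bound members and 4675 bp and 53.8% for the others. All bound protein-coding genes had a median of 3231 bp and 42.9% with several 5′ ends, beside 2027 bp and 26.3% over all protein-coding genes, bound ones included. None of these differences was tested. Long genes and extra 5′ ends give a summit more room, and their part in the shares of bound genes was not tested either.

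**Figure D3:**
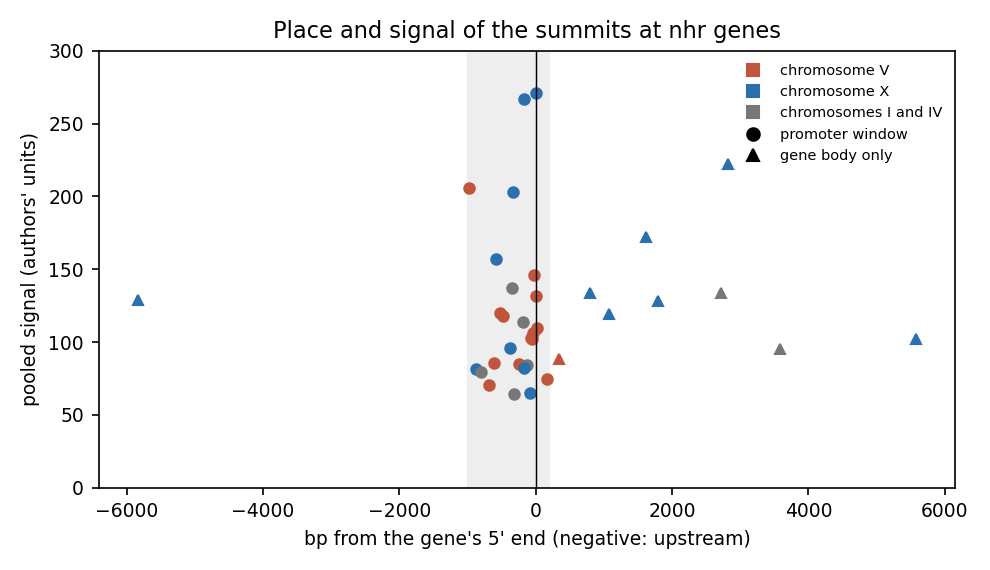
Pooled signal of the 36 member summits against distance in bp from the 5′ end of the gene (for summits in the shaded promoter window, the nearest 5′ end whose window holds them); circles lie in the promoter window and triangles in the gene body only. The 26 window summits crowd near the 5′ end, and the strongest signals, 271 and 267, are on X.

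The clusters of chromosome V were then set against the other members. A cluster was a run of at least 3 nhr genes on V with at most 50 kb between neighbours, which gave 16 clusters with 113 genes. Of these 7 were bound, or 6.19% (2.53 to 12.3), against 21 of the other 156, or 13.5% (8.53 to 19.8). The intervals overlapped. In the promoter window alone the shares were 6.19% and 10.3%, since no clustered gene was bound in the body only. Of the 54 members on V outside the clusters 5 were bound, or 9.26% (3.08 to 20.3). Of the 102 on other chromosomes 16 were, or 15.7% (9.24 to 24.2), and these divide into 10 of 23 on X (43.5%) and 6 of 79 on the remaining autosomes (7.59%). Off X, the shares of clustered and other members thus lay close together, at 6.19% in the clusters, 9.26% elsewhere on V and 7.59% on the remaining autosomes.

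The neighbourhood of the clusters was itself thin in peaks. Among the 134 other protein-coding genes inside the cluster spans 3 were bound, or 2.24% (0.464 to 6.40), a lower share than that of the nhr genes beside them with overlapping intervals. On V outside the clusters 11.7% (10.8 to 12.6) of other genes were bound, and on the other chromosomes 22.2% (21.5 to 22.9). The 16 spans, 779 kb together, held 12 summits, or 1.54 per 100 kb, against 4.16 over V, 8.04 over X and 6.26 over the nuclear genome. Of these 12, 8 were the summits of the clustered nhr genes themselves, so this density is not independent of their share. In 11 of the 16 clusters 0 nhr genes were bound. Those 11 were small, with 3 to 8 nhr genes each, and at the low share of the clusters a count of 0 is not unusual.

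**Figure D4:**
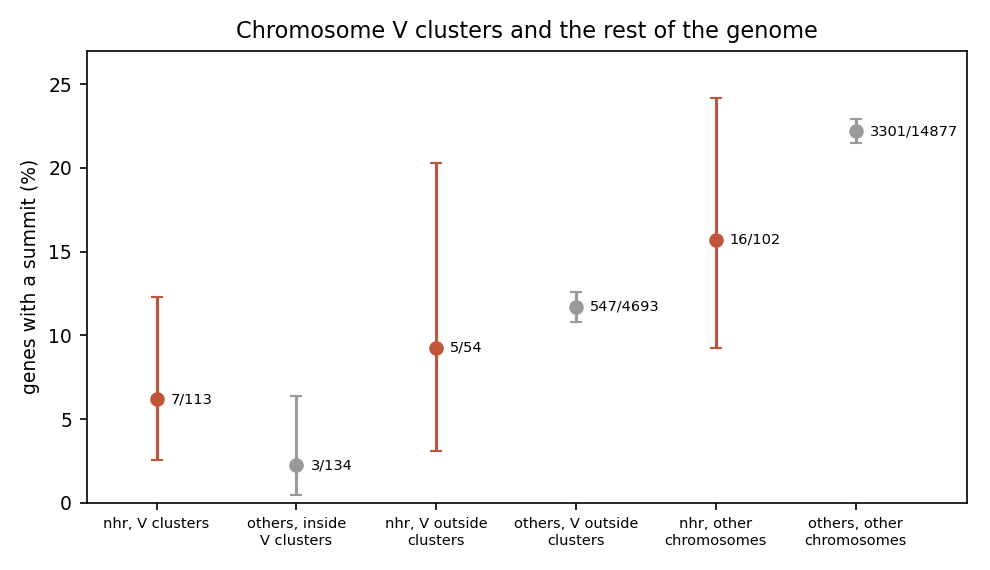
Share of genes with a thresholded summit in the promoter window or body, in percent, for nhr genes (red) and other protein-coding genes (grey) inside the chromosome V clusters, elsewhere on V and on other chromosomes; lines are exact 95% binomial intervals and labels bound over all genes. Genes inside the clusters stand lowest, at 6.19% for nhr genes and 2.24% for the others.

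The strongest summits of the 7 bound genes of the clusters ran from 84.9 to 146 with a median of 103, and 2 of the 7 reached the median of all peaks. For the 21 bound members elsewhere the range was 64.4 to 271 with a median of 128, and it took in that of the clustered genes. Among those 21, the 10 on X had a median of 143 and the 6 on autosomes other than V one of 99.1, below that of the clusters, with 2 of 6 at or above the median of all peaks. Among the 7 clustered genes the strongest summit was at nhr-58 (V, 532045 to 532434), 19 bp upstream of the gene. Its signal was 67.2 in replicate 1, 78.9 in replicate 2 and 146 pooled. nhr-58 lies in a cluster of 19 nhr genes (V, 392628 to 541485), where the only other bound nhr gene was nhr-203 (28.9, 54.6 and 85.6). In that span 0 of 29 other genes were bound.

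Another cluster of 19 (V, 2192485 to 2296977) held the bound genes nhr-59 and nhr-228. nhr-228 had a summit 36 bp upstream (47.9, 65.7 and 106). nhr-59 had one 517 bp upstream (83.0, 46.2 and 120) and one in a coding exon (53.1, 21.5 and 75), and both lay also in the promoter window of fbxa-137, an F-box gene whose 5′ end is 34 bp from the stronger. These nhr-59 summits leaned to replicate 1, while most member summits leaned slightly to replicate 2, with a median log2 ratio of 0.32 against 0.15 over all peaks. The remaining clustered genes were nhr-188 (75 bp upstream; 47.2, 51.8 and 103), nhr-190 (48 bp upstream; 42.1, 61.2 and 102) and nhr-207 (250 bp upstream; 38.7, 48.2 and 84.9). Each was the only bound nhr gene of its cluster.

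Elsewhere on V the summits at some members were shared with a neighbour. nhr-15 (V, 311541 to 311930) had the strongest signal on V among members (92.2, 115 and 206), but its summit lay 985 bp upstream, near the edge of the window, and 171 bp from the 5′ end of phf-10. The summits of nhr-142 (pooled 118 and 70.5) were nearer to the 5′ end of F44E7.9, and that of nhr-47 (58.5, 50.3 and 110), 17 bp inside the gene, was also in the promoter window of dnj-19, a DnaJ chaperone gene. nhr-256 (V, 1743585 to 1743974; 75.6, 55.4 and 132), bound 9 bp inside its 5′ end, shared its summit with no other promoter window, and nhr-95 (31.7, 63.5 and 88.7) was bound in a coding exon. In all, 6 of the 26 promoter summits were in the window of another protein-coding gene too. For 4 members, nhr-15, nhr-17, nhr-27 and nhr-142, every summit was nearer to a 5′ end of another gene.

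Position along V was also compared, in a division into 3 equal parts made after the values had been seen. In the left part 10 of 78 members were bound, or 12.8% (6.32 to 22.3), beside 9.49% (8.04 to 11.1) of other genes. In the middle part 1 of 41 was bound, nhr-207, or 2.44% (0.0617 to 12.9), beside 15.7% (14 to 17.5). In the right part 1 of 48 was bound, nhr-95, or 2.08% (0.0527 to 11.1), beside 8.4% (7.09 to 9.87). The middle part, where other genes of V were bound most often, was thus the one where the intervals stood apart.

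By known role, the bound receptors were scattered. Of 8 genes of lipid metabolism 2 were bound, nhr-49 and nhr-66, and nhr-80, nhr-13, nhr-64, nhr-62, nhr-69 and nhr-76 had no thresholded summit. Of 10 genes of the embryo, moulting and cell fate 2 were bound, nhr-40 and nhr-41. No thresholded summit was found at nhr-23 and nhr-25, receptors needed for moulting and epidermal development, at nhr-67, a counterpart of tailless, at nhr-2, which is expressed in the early embryo, or at nhr-6, nhr-60, nhr-85 and nhr-91. For nhr-2, nhr-6, nhr-23, nhr-25, nhr-60, nhr-67 and nhr-85 the relaxed pooled list, whose 30000 entries include background, held no entry in the window or the body either. At nhr-91, a counterpart of GCNF, it held one with a signal of 40.7.

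Of 9 genes of stress, xenobiotic and pathogen responses 2 were bound, nhr-14 and nhr-45, and nhr-8, nhr-28, nhr-42, nhr-57, nhr-86, nhr-112 and nhr-176 were not. None of nhr-10, nhr-68 and nhr-114, which control propionate breakdown or the response to low vitamin B12, was bound. Of 15 receptors with counterparts in insects or vertebrates 4 were bound: nhr-41, nhr-48, daf-12 and fax-1. In this list nhr-111, nhr-239, sex-1 and unc-55 were also without a thresholded summit. These 5 lists overlap and are small. Their shares of bound genes, 0 to 26.7%, stand beside 19.4% of all protein-coding genes. In the lists that follow, 2 of 5 receptors with other names (40%) and 3 of 9 partners and pathway genes (33.3%) were bound. Those lists, too, are small and cannot be set apart from a share of 19.4%. No interval was computed for any list.

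Receptors that carry other names were bound at 2 of 5, or 40%, beside 19.4% of all protein-coding genes and 22.3% of the protein-coding genes of X other than nhr genes. daf-12, the receptor for dafachronic acids, had an intronic summit (X, 10637532 to 10637921) with 59.8 in replicate 1, 44.0 in replicate 2 and 92.7 pooled. fax-1, a counterpart of the photoreceptor receptor PNR that acts in neurons, had its strongest in a coding exon (X, 3197437 to 3197560) with 58.1, 79.6 and 140. Both lie on X, as do odr-7 and sex-1, which had none. unc-55, on I, had none.

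Among 9 partners and genes of the hormone pathway 3 were bound, or 33.3%, beside 19.4% of all protein-coding genes. The sterol methyltransferase gene strm-1, which lowers the supply of DAF-12 ligand precursors, had a summit 743 bp upstream (92.9, 118 and 205). The coactivator gene cbp-1 had its strongest 154 bp upstream (98.5, 105 and 203), and din-1, a corepressor of DAF-12, one 735 bp upstream (41.5, 69.2 and 107). The Mediator subunit gene mdt-15, the dafachronic acid synthesis genes daf-9, daf-36, hsd-1 and dhs-16, and the corepressor gene gei-8 had none. The known targets of NHR-49, fat-5, fat-6, fat-7, acs-2 and fmo-2, had 0 bound of 5, a list too small to set apart from a share of 19.4%.

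Of the 241 members without a thresholded summit, 62, or 25.7%, had an entry in the relaxed pooled list in the window or body, close to the 26.9% of all 16094 protein-coding genes without one. The signals of the strongest such entry ran from 13.5 to 57 with a median of 24.0, where the relaxed list had a median of 24.3. The members among them with an entry at a −log10 q of at least 2 were nhr-13, nhr-42, nhr-86 and nhr-88. The share over all genes without a thresholded summit was not computed. This value did not simply rise with signal: it was 2.13 at nhr-255 (signal 271) and 2.76 at nhr-66 (79.4). For the other 179 members no entry of any strength was listed.

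Strong peaks lay just beyond the window of some unbound members. Whether this was particular to nhr genes was not tested, since strong peaks beyond the windows of other genes were not counted. With a window of 2000 bp upstream to 500 bp downstream and summits of any strength, bound members rose from 28 (10.4%) to 33 (12.3%). All protein-coding genes rose from 19.4% to 23.4%. A summit with a signal of 453 (242 and 201 in replicates 1 and 2) was 1095 bp upstream of nhr-280, one of 300 (123 and 179) 1065 bp upstream of nhr-21, and one of 286 (153 and 129) 1117 bp upstream of nhr-8, which acts in cholesterol balance and the response to toxins. All 3 exceeded the strongest summit at any bound member. The summit near nhr-280 was nearer to pals-22, and that near nhr-8 lay 130 bp from emc-6, while that near nhr-21 had no nearer protein-coding 5′ end than that of nhr-21. Weaker summits stood 1442 bp upstream of nhr-10 (104) and 1568 bp upstream of nhr-157 (96.6).

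Since duplicated genes can share sequence, the uniqueness of promoter windows was measured. It was the share of words of 32 bases found once in the nuclear genome. Only the window at the outermost 5′ end of each gene was measured, not those at internal 5′ ends or the gene bodies. The median was 100% for the clustered members, the other members and all other genes. Windows below 90% unique made up 12.4% of clustered members, 13.5% of the other members and 14.2% of other genes. Of the 28 bound members 1, nhr-87, was below 90%, at 38.8%, and of the 241 unbound ones 34 were. Reads in such windows may not be placed with certainty, and how the authors treated reads with several positions is not given in the sources used here.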

How the data were processed

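The deposited files are narrowPeak lists from ChIP-seq of 1 group of 2 biological replicates, which the labels do not tie to separate cultures. Per the file headers and the note beside them, each replicate and their pool has a relaxed list of 30000 entries called against a control, and the authors derived the thresholded list from these by the irreproducible discovery rate (IDR). The signal of each peak and its −log10 q are the authors' deposited values. The labels state a size range of 150 to 350. The aligner, the peak caller, their versions and the read depth were not given in the sources used here.

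Summits were placed on the Ensembl release 115 annotation of WBcel235, whose coordinates are those of ce11, and sequence was read from the WBcel235 reference of RefSeq. Positions count from 1. Replicate signals are those of the nearest summit within 100 bp in each replicate's list, and the lists are not scaled to one another. Intervals are exact 95% Clopper-Pearson intervals (SciPy 1.17.1) and cover counting error only. No test of a gene list was made. The assignment of summits was tested on simulated data. Members and lists were chosen with earlier results of these data known, and the GAGAGA and CANNTG counts, the uniqueness measure and the 3 parts of V were added later. Bound members were named up to 60, with full values for the 12 strongest; nhr-21, nhr-157 and nhr-280 near the window, nhr-88 and neighbouring genes were named after their values were seen. Alternatives varied the peak set, replicate, window, 5′ ends and cluster definition.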

Additional observations from a re-analysis of the deposited data

How the results depend on the processing

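With only the stronger peaks, ranked above the median, 9 members (3.35%) had a promoter summit and 13 (4.83%) a promoter or body summit. Over all protein-coding genes the shares were 8.99% and 11.2%. Of members, 1.77% were bound in the V clusters and 7.05% elsewhere. With the 500 strongest peaks the 2 counts and the 2 shares of members were all 0. Of all genes 1.27% had a promoter summit and 1.88% a promoter or body summit. For each replicate alone, the 6273 strongest nuclear entries of its relaxed list were used, as many as in the pooled thresholded list. Each gave 19 to 24 and 25 to 32 members, and shares of 5.31% to 7.96% in the clusters and 12.2% to 14.7% elsewhere. Those counts were 7.06% to 8.92% and 9.29% to 11.9% of members, beside 16.3% and 19.6% to 19.7% of all protein-coding genes. Every other alternative run, of the window, the 5′ ends, the peak set or the cluster definition, kept the counts within 1.5 times and the shares within their intervals: 18 to 29 promoter members, 24 to 33 in all, 5.31% to 7.96% in the clusters and 10.9% to 16% elsewhere. Under the alternative windows and 5′ ends, 6.69% to 10.8% of members had a promoter summit, beside 12.6% to 21.2% of all protein-coding genes. With the body added these were 8.92% to 12.3% and 15.2% to 23.4%. For the remaining peak sets the share over all genes was not computed. The cluster share was below that of the other members, which include those on X, in each setting but the 500 strongest peaks, where both were 0. Leaving out that setting, 2.4% to 8.98% of members on all of V were bound under the settings of peaks, replicate, window and 5′ ends. On the autosomes other than V 2.53% to 12.7% were. On X 7 to 10 of 23 members were bound in all settings but the 500 strongest peaks. The share of the other genes of X was computed in the main setting only, so the difference on X was not followed across settings. With 2000 bp upstream and 500 bp downstream the autosomes other than V rose from 6 to 10 of 79. Matching within 50 bp or 200 bp gave an SD of 0.51 or 0.54, motif windows of 25 bp and 100 bp gave 1 summit with CAGGTG each, and all 36 member peaks were also on the ce10 list. No paired analysis was possible because there is a single group. Read depth is unknown, so a gene without a summit is not shown to be unbound.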
